A study of Homo sapiens with 2 samples.

Results

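The RNA levels of 10 genes of the NRF2 antioxidant system were followed, of 58884 genes listed in each library. They are the regulators NFE2L2, KEAP1 and BACH1 and the targets HMOX1, NQO1, GCLC, GCLM, SLC7A11, TXNRD1 and SRXN1. The 10 genes were found by symbol in the count tables and were chosen with the ratios of HMOX1, NFE2L2 and KEAP1 in this same comparison already known to be low. Their values are therefore a description, without a test.

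NRF2, encoded by NFE2L2, is the transcription factor that switches on antioxidant and detoxification genes. In unstressed cells KEAP1 holds NRF2 and passes it to the CUL3 ubiquitin ligase for degradation. When oxidants or electrophiles modify KEAP1, NRF2 accumulates, pairs with a small MAF protein and binds antioxidant response elements, whereas BACH1 occupies the same elements as a repressor until haem displaces it.

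RNA came from T24/R cells, adherent epithelial cells of the urinary bladder whose name points to T24, a line from a urothelial carcinoma. The cells of 1 library received 1600 nM THZ1 for 6 h and those of the other received the solvent DMSO for 6 h, and both grew in RPMI medium with fetal bovine serum. THZ1 is a covalent inhibitor of CDK7, a kinase of the transcription machinery, and it also acts on CDK12 and CDK13. The series asks what CDK7 inhibition does in this line, and the comparison made here asks how the RNAs of the NRF2 system differ between the treated and the control library. Each group had 1 library, so there is no replicate check, no p-value is given, and all intervals are 95% intervals of counting error alone.

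The DMSO library held 18445831 counts and the THZ1 library 18313827. Of 15 urothelial and epithelial markers, 6 reached 10 counts in a library, led by the keratin genes KRT18 (696 and 494 counts in DMSO and THZ1) and KRT8 (77 and 100). TP63 had 61 and 34 counts, GATA3 25 and 12, KRT7 18 and 17, and UPK1A 10 and 5. The other 9, among them KRT19, EPCAM and CDH1, had at most 5 counts in either library, and KRT20, UPK1B and UPK3A were at 0 in both. Most of the defining epithelial and urothelial markers were thus near absent. The urothelial and epithelial markers summed to 40.5 and 44.1 CPM (read counts scaled to a common library size) and fibroblast markers to 3.36 and 6.14 CPM in DMSO and THZ1. Endothelial and blood cell markers summed to at most 0.326 CPM in either library. Counts are relative to the rest of each library. Bulk RNA cannot tell fewer cells of a type from less RNA per cell.

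Sequence is shown for the start sites of these genes because the core antioxidant response element is what NRF2 and BACH1 compete for. RefSeq windows on GRCh38.p14, reaching from 250 bases before a start site through the first 50 transcribed bases, were at hand for 8 of the 10 genes (13 windows, since some genes have several start sites). HMOX1 and SLC7A11 had no window. The letters TGACNNNGC, the core element, were searched on both strands and were found in 4 windows belonging to GCLM, TXNRD1 and KEAP1, beside 13.3% of all 35116 windows. The stricter TGACTCAGC, which is one form of TGACNNNGC and also contains an AP-1 site, was in 0 of the 13 windows and in 0.561% of all. The AP-1 letters TGANTCA were in 1 window, that of a BACH1 start site, and in 7.71% of all windows. Each match is printed below within 30 bases, read 5′ to 3′ on the strand of the gene, with the matching letters in capitals. GCNNNGTCA is the same core element read on the opposite strand.
GCLM, 34 bases before the start, chr1:93909445-93909474, minus strand: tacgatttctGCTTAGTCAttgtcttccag
KEAP1, 31 bases before a start, chr19:10502783-10502812, minus strand: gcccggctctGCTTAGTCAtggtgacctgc
KEAP1, 54 bases before the same start, chr19:10502806-10502835, minus strand: acttttattgTGACACGGCgggcgcccggc
TXNRD1, 99 bases before a start, chr12:104215670-104215699, plus strand: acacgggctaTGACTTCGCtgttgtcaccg
TXNRD1, 8 bases before the same start, chr12:104215761-104215790, plus strand: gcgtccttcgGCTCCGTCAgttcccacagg
TXNRD1, 102 bases before another start, chr12:104286920-104286949, plus strand: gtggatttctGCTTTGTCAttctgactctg
BACH1, 48 bases before a start, AP-1 letters, chr21:29298863-29298892, plus strand: cgcggaaggagTGAGTCAcctgaccgctgc

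The GCLM and KEAP1 stretches hold the identical 9 letters GCTTAGTCA, close to the start in both. As the values below show, these genes had different ratios. All 120 bases before the KEAP1 start with matches, and before the TXNRD1 start at 104287032, are annotated exonic bases of the same gene. The matches there thus lie inside annotated exons. Before the other starts with a match, 26 (GCLM), 0 (TXNRD1) and 51 (BACH1) of the 120 bases are exonic. Whether the GCLM and BACH1 matches touch those exonic bases is not given here. The TXNRD1 match 8 bases before its start ends on the start base itself, 104215779. These matches describe letters, not bound sites, and the windows leave out more distant elements.

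Across the 9 members with enough counts to test, 5 were lower in THZ1, 0 were higher and 4 were neither. A call required a difference of 2-fold or more and an interval that excluded equality. Of all 12457 tested genes, 21.3% were lower and 9.70% were higher by the same rule. The member counts are read no further against these shares, since the members were chosen from this comparison. Lower were all 3 regulators (NFE2L2, KEAP1 and BACH1), the haem-degrading enzyme HMOX1 and the glutathione synthesis gene GCLC. NQO1, GCLM, SLC7A11 and TXNRD1 stayed within 2-fold. SRXN1 had 28 counts in DMSO and 0 in THZ1, under the minimum of 30 counts for testing. The plot of levels by library shows each gene.

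**Figure D1:**
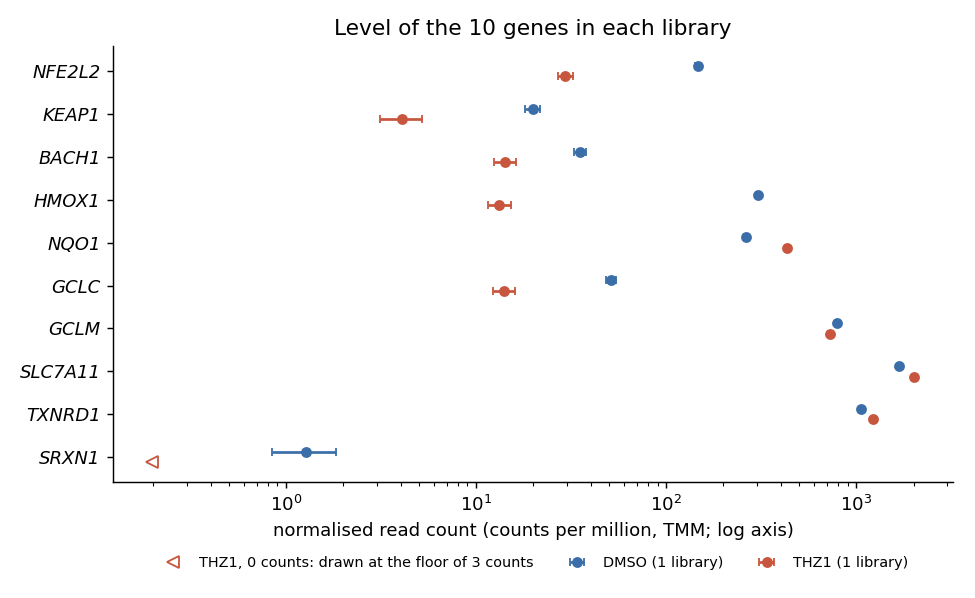
Normalised read count of each gene (x axis, CPM after TMM scaling, log axis) in the DMSO and the THZ1 library; bars are 95% intervals of counting error, and the open triangle marks a floor of 3 counts for SRXN1, which had 0 counts in THZ1. The points of NFE2L2, KEAP1, BACH1, HMOX1 and GCLC lie well apart, and those of GCLM (793 and 727), SLC7A11 and TXNRD1 lie close together.

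NFE2L2 (ENSG00000116044, GRCh38 chr2:177227595-177392697) had 3250 counts in DMSO and 452 in THZ1, or 147 and 29.5 CPM after scaling. The THZ1 level was lower by a factor of 4.99, and the log2 ratio was −2.32 (−2.47 to −2.18). Of its annotated exonic bases 20.9% also lie in exons of other genes. Most of these, 17.6% of its exonic bases, lie in exons of AC019080.1 on the same strand (65 and 52 counts). AGPS overlaps it on the opposite strand (4548 and 4257 counts). Neither the strand setting of the counting nor the handling of ambiguous reads is given in the sources used here. Reads of these stretches can therefore be misplaced or dropped.

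KEAP1 (ENSG00000079999, chr19:10486120-10503741), the inhibitor that targets NRF2 for degradation, had 437 and 62 counts, or 19.8 and 4.05 CPM. Its log2 ratio of −2.28 (−2.70 to −1.91), a 4.86-fold lower level, was nearly that of NFE2L2. No exonic base of KEAP1 is shared with another gene. The number of NFE2L2 reads per KEAP1 read was 7.44 in DMSO and 7.29 in THZ1, a quotient that does not depend on library scaling. The fold between these quotients was 0.980 (0.735 to 1.32), and its interval included 1. Both genes had been chosen with their low ratios known, so their similar ratios are partly built in. No conclusion on the balance of activator to inhibitor RNA is drawn.

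BACH1 (ENSG00000156273, chr21:29194071-29630751), the repressor, had 775 and 218 counts, or 35.1 and 14.2 CPM. Its log2 ratio was −1.30 (−1.53 to −1.09), 2.47-fold lower and the least low of the 3 regulators. BACH1 reads per NFE2L2 read went from 0.238 in DMSO to 0.482 in THZ1, a 2.02-fold higher quotient (1.68 to 2.43). Both RNAs were lower in THZ1, and the repressor's RNA was the less reduced of this pair. NFE2L2 had been chosen with its low ratio known, which tilts this quotient upward, so it is a description only.

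HMOX1 (ENSG00000100292, chr22:35380361-35394214) encodes heme oxygenase 1, the inducible enzyme that cleaves haem to biliverdin, iron and carbon monoxide. The DMSO library had 6675 HMOX1 counts (303 CPM) and the THZ1 library 203 (13.2 CPM). The log2 ratio was −4.51 (−4.72 to −4.31), a 22.8-fold lower level. HMOX1 ranked 23rd from the lowest of 12457 tested genes and 2nd from the lowest of the 4232 genes with at least 1000 counts in a library. The protein-coding genes of that depth with the nearest ratios were CDC25A (−4.60), DCLRE1B (−4.11) and TNFRSF1A (−4.06). With 2 libraries such nearness rests on 1 ratio per gene. HMOX1 shares no exonic base with another annotated gene.

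HMOX2, the constitutive isoenzyme, had 416 and 215 counts and a log2 ratio of −0.43 (−0.67 to −0.19). The DMSO library thus held 16.0 HMOX1 reads per HMOX2 read and the THZ1 library 0.944. This quotient was 17.0-fold lower (13.6 to 21.2). The reads of the inducible form exceeded those of the constitutive form in DMSO and were about as many in THZ1. Reads are not corrected for gene length. In TPM, which scales by exonic length, HMOX1 and HMOX2 stood at 530 and 20.9 in DMSO and at 11.9 and 7.96 in THZ1. HMOX1 had been chosen with its low ratio known.

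**Figure D2:**
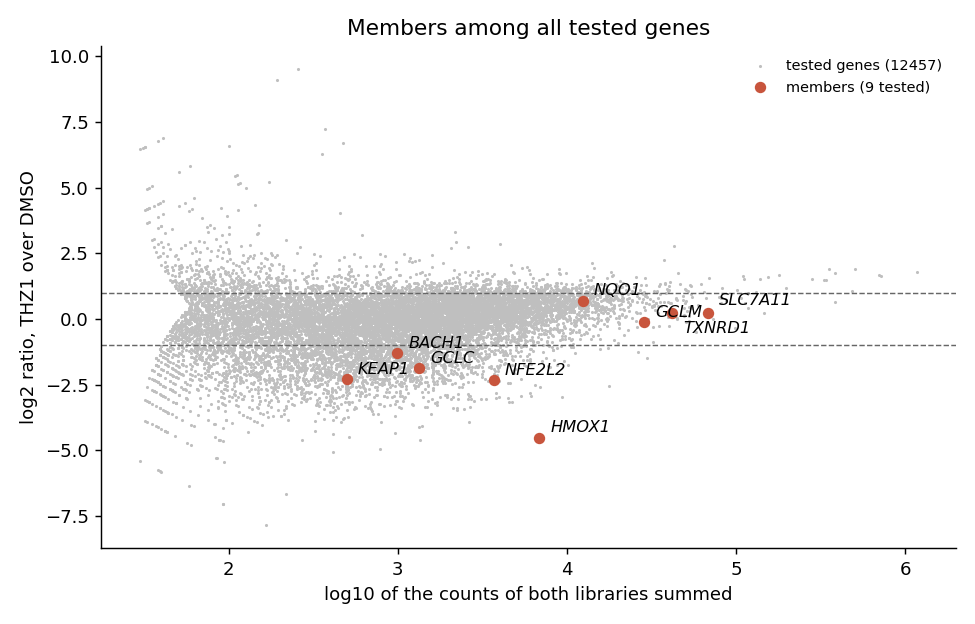
Each grey point is a tested gene, with the log10 of its summed counts on the x axis and its log2 ratio of THZ1 over DMSO on the y axis; red points are the 9 tested members and dashed lines mark 2-fold. HMOX1 (−4.51) lies at the lower edge of the cloud for its count, while SLC7A11, TXNRD1 and GCLM lie at the right end, close to 0.

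NQO1 (ENSG00000181019, chr16:69706996-69726951), the quinone reductase most used as a readout of NRF2, did not share the low ratio of HMOX1. It had 5811 and 6589 counts, or 264 and 430 CPM. Its log2 ratio was 0.71 (0.66 to 0.76), 1.63-fold higher and so within 2-fold. Of its exonic bases 17.7% overlap the opposite-strand gene AC092115.2, which had 0 counts in both libraries. HMOX1 and NQO1 had similar counts in DMSO, with 1.15 HMOX1 reads per NQO1 read. In THZ1 the quotient was 0.0308, which is 37.3-fold lower (32.3 to 43.3). HMOX1 had been chosen with its low ratio known, so this quotient is a description only.

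Of the glutathione genes among the members, GCLC was lower and GCLM was not. GCLC (ENSG00000001084, chr6:53497341-53616970) and GCLM (ENSG00000023909, chr1:93885205-93909456) encode the catalytic and the modifier subunit of glutamate-cysteine ligase, the rate-limiting enzyme of glutathione synthesis. GCLC had 1127 and 215 counts (51.1 and 14.0 CPM), a log2 ratio of −1.86 (−2.08 to −1.65) and a 3.64-fold lower level. GCLM had 17484 and 11143 counts (793 and 727 CPM) and a log2 ratio of −0.12 (−0.16 to −0.09). The libraries held 15.5 and 51.8 GCLM reads per GCLC read, a 3.34-fold higher quotient in THZ1 (2.88 to 3.89). The subunits of this enzyme therefore did not keep their RNA ratio.

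SLC7A11 (ENSG00000151012, chr4:138164097-138242349), the light chain of the cystine/glutamate antiporter that supplies cysteine for glutathione, was the most abundant member. It had 37209 and 30715 counts (1688 and 2005 CPM), and its log2 ratio was 0.25 (0.23 to 0.27). Of its exonic bases 8.97% overlap the opposite-strand gene SLC7A11-AS1, which had 630 and 440 counts. SLC3A2, the heavy chain of the same antiporter, had 2927 and 1502 counts and a log2 ratio of −0.44 (−0.53 to −0.35). SLC7A11 reads per SLC3A2 read were 12.7 and 20.4, a 1.61-fold higher quotient in THZ1 (1.51 to 1.72).

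TXNRD1 (ENSG00000198431, chr12:104215779-104350305), the cytosolic thioredoxin reductase, had 23268 and 18815 counts (1055 and 1228 CPM) and a log2 ratio of 0.22 (0.19 to 0.25). Its substrate thioredoxin, TXN, was higher, with 5833 and 13021 counts and a log2 ratio of 1.68 (1.64 to 1.73). TXNRD1 reads per TXN read were 3.99 in DMSO and 1.44 in THZ1, a 2.76-fold lower quotient (2.66 to 2.86). On TMM scaling the reductase was thus within 2-fold while its substrate's RNA was 3.21-fold higher. Both of these levels depend on the scaling, as described below, whereas the quotient does not.

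SRXN1 (ENSG00000271303, chr20:646615-653370), which encodes sulfiredoxin, the enzyme that repairs overoxidised peroxiredoxins, had 28 and 0 counts. Set against a floor of 3 counts in the THZ1 library (0.196 CPM), it was at least 6.49-fold lower, a bound that takes the 28 counts as exact. With counting error in both libraries, the interval of the log2 ratio reached up to −2.30. Its low count has a limit of its own: 85.0% of its exonic bases also belong to AL121758.1, an overlapping protein-coding gene on the same strand (6 and 1 counts). How reads that fall in both genes were counted is not given in the sources used here, so these values describe the reads assigned to SRXN1, which may be only some of its reads. PRDX1, a peroxiredoxin that sulfiredoxin repairs, had 6163 and 5997 counts and a log2 ratio of 0.49 (0.43 to 0.54).

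Of the 36 quotients between tested members, 33 differed between the libraries beyond counting error. The same share was not computed for pairs of other genes, and with large counts even small differences in ratio exceed counting error. The number is therefore not read as particular to the members. The remaining 3 were NFE2L2 to KEAP1, KEAP1 to GCLC (0.744, 0.540 to 1.01) and SLC7A11 to TXNRD1 (1.02, 0.996 to 1.05). The tested members did not share a common ratio, and HMOX1, NFE2L2 and KEAP1 had been chosen as low. The most abundant members, SLC7A11 and TXNRD1, kept their proportion to each other. Counting error is only part of the variation between cultures, which was not measured.

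**Figure D3:**
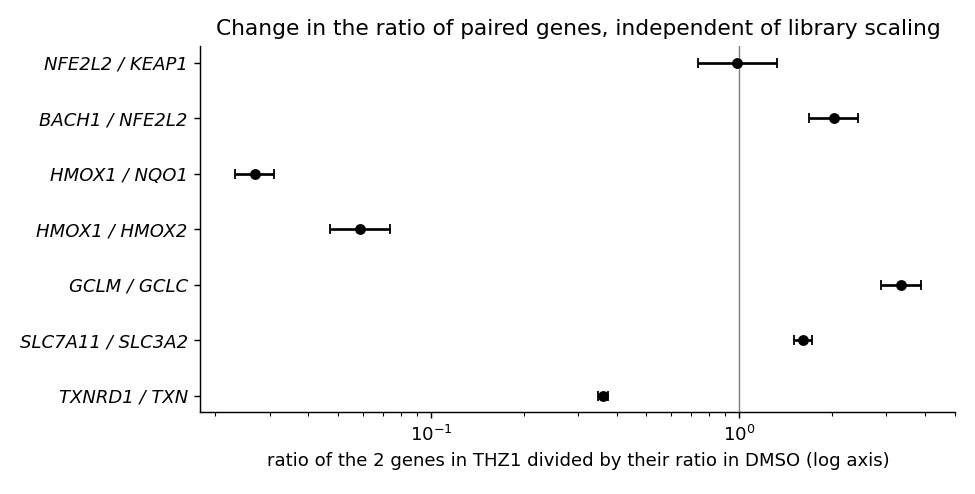
For 7 gene pairs with related roles, the quotient of the first to the second gene's counts in THZ1 divided by the same quotient in DMSO (x axis, log axis), with 95% intervals of counting error. NFE2L2 to KEAP1 lies at 0.980 on the line of no change, HMOX1 to NQO1 at 0.0268 is furthest from it, and the SRXN1 to PRDX1 pair is not drawn because SRXN1 had 0 counts in THZ1. HMOX1, NFE2L2 and KEAP1 had been chosen with their low ratios known, which shapes the quotients that hold them.

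The makeup of the 10-gene group differed accordingly. All 10 genes summed to 96064 counts (0.521% of the library) in DMSO and 68412 (0.374%) in THZ1. HMOX1 took 6.95% (6.79 to 7.11) of that sum in DMSO and 0.297% (0.257 to 0.340) in THZ1, with exact binomial intervals. SLC7A11 took 38.7% and 44.9%, TXNRD1 24.2% and 27.5%, and NQO1 6.05% and 9.63%. GCLM took 18.2% in DMSO and 16.3% in THZ1.

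Levels can be compared between genes only per length. In the DMSO library, in TPM (transcripts scaled per length and library) over the annotated exonic length, the order was SLC7A11 (736), TXNRD1 (662), GCLM (615), HMOX1 (530), NQO1 (341), NFE2L2 (104), GCLC (24.9), KEAP1 (22.2), BACH1 (19.2) and SRXN1 (1.98). The counting intervals of GCLC (23.4 to 26.4) and KEAP1 (20.1 to 24.3) overlapped, as did those of KEAP1 and BACH1 (17.8 to 20.6). The length joins all annotated exons of a gene, whichever transcripts were present, and the intervals leave this source of error out. Among 10881 tested protein-coding genes, SLC7A11, TXNRD1, GCLM, HMOX1 and NQO1 ranked 89, 107, 120, 139 and 232 by this level. In THZ1 their ranks were 126, 153, 227, 4736 and 231. All 4 tested members that stayed within 2-fold were among the 5 most abundant ones, and the other was HMOX1, which had been chosen as low. Of all tested genes with 1000 or more counts in a library, 13.2% were called lower, beside 21.3% of all tested genes. The part of abundance in the members' ratios was not tested.

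Tested protein-coding genes were placed in 5 equal groups by gene span, and the share called lower was 26.7% in the shortest group and 15.3% in the longest. In the second shortest group (11.6 to 25.5 kb, 26.9% lower, median log2 ratio −0.18), HMOX1 and KEAP1 were lower and GCLM and NQO1 were not. In the longest group (99.6 to 2173 kb, median 0.07), NFE2L2, GCLC and BACH1 were lower and TXNRD1 was not. Span here runs between the outermost annotated ends of a gene. The RefSeq start sites of NFE2L2 (177264727) and GCLC (53545101) lie well inside their outer ends (177392697 and 53616970). Transcripts from those starts cover less than the span, and the group of a gene can depend on this choice. Both groups held members with and without a call, and the part of gene span in their ratios was not tested.

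The reference used for scaling sets the sign of the small ratios. Every log2 ratio shifts by −0.11 with DESeq2 size factors, by −0.51 with total counts and by −1.69 when the 13 mitochondrially encoded mRNAs serve as the reference. With total counts the same number of members, 5, was lower, beside 34.2% of all tested genes, and SLC7A11 and TXNRD1 turned to −0.27 and −0.30 while NQO1 stood at 0.19. On the mitochondrial reference 8 members were lower, beside 80.3% of all tested genes, and NQO1 had a ratio of −0.98. On that reference every ratio above 0 named in this text, with the exceptions of JUNB and FOS, lies below 0. The quotients between genes and the makeup of the group are unaffected by scaling.

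**Figure D4:**
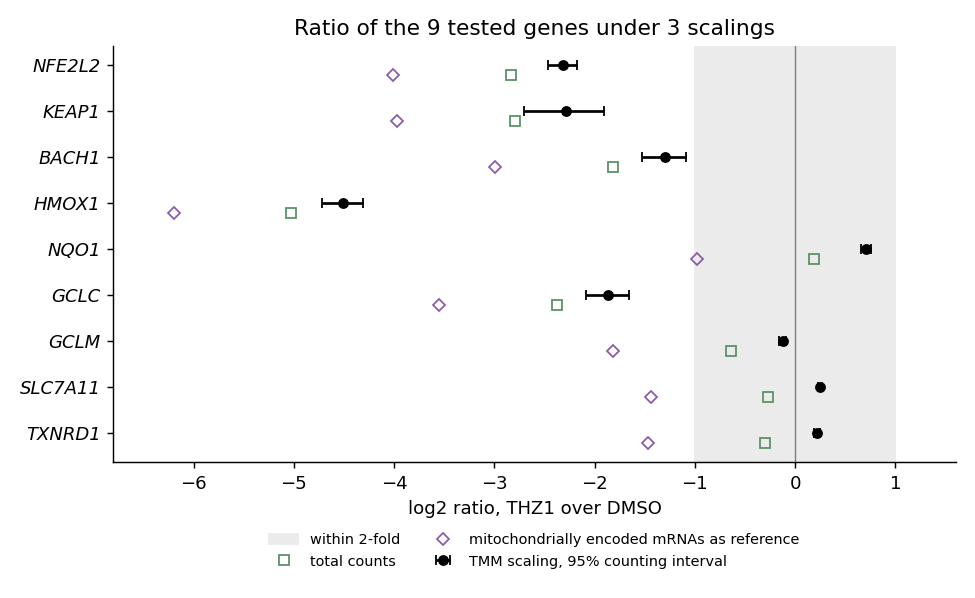
Log2 ratio of THZ1 over DMSO (x axis) for the 9 tested genes: black points with 95% counting intervals are on TMM scaling, squares on total counts and diamonds on the mitochondrial mRNA reference; the grey band is within 2-fold. NFE2L2, KEAP1, BACH1, HMOX1 and GCLC lie left of the band under all 3 scalings.

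Partners and regulators of NRF2 outside the 10 genes were called about as often as all tested genes. Of 16 tested, 4 were lower (25%, beside 21.3% of all), 1 was higher (6.25%, beside 9.70%) and 11 were neither, with a median log2 ratio of −0.42 beside −0.03 for all tested genes. The lower ones included EP300 (−2.14, −2.28 to −2.01, 3359 and 528 counts) and CREBBP (−2.06, −2.24 to −1.89, 1898 and 316 counts), the acetyltransferases that act as NRF2 coactivators. Also lower were SYVN1 (−1.34), a ubiquitin ligase that degrades NRF2, and GSK3B, a kinase that marks NRF2 for degradation independently of KEAP1. GSK3B stood at −1.02 (−1.16 to −0.89), so its interval reached within 2-fold. RBX1, the RING subunit of the CUL3 ligase, was higher (1.22, 1.10 to 1.34). CUL3 itself (−0.44), the KEAP1-binding autophagy receptor SQSTM1 (−0.76) and the small MAF genes MAFG (−0.56), MAFF (0.04) and MAFK (0.77) were within 2-fold.

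Of 27 other NRF2 targets tested, 2 were lower (7.41%, beside 21.3% of all tested genes), 3 were higher (11.1%, beside 9.70%) and 22 were neither, with a median of 0.49. OSGIN1, an oxidative stress-induced growth inhibitor, was the lowest at −3.69 (−4.84 to −2.85; 195 and 10 counts), and the carbonyl reductase gene CBR3 was at −1.05 (−1.63 to −0.52). The higher ones were TXN, the glutathione transferase gene MGST1 (1.20, 1.13 to 1.28) and the NADPH-forming dehydrogenase gene IDH1 (1.11, 1.03 to 1.18). The glutathione reductase gene GSR (0.17) was within 2-fold.

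**Figure D5:**
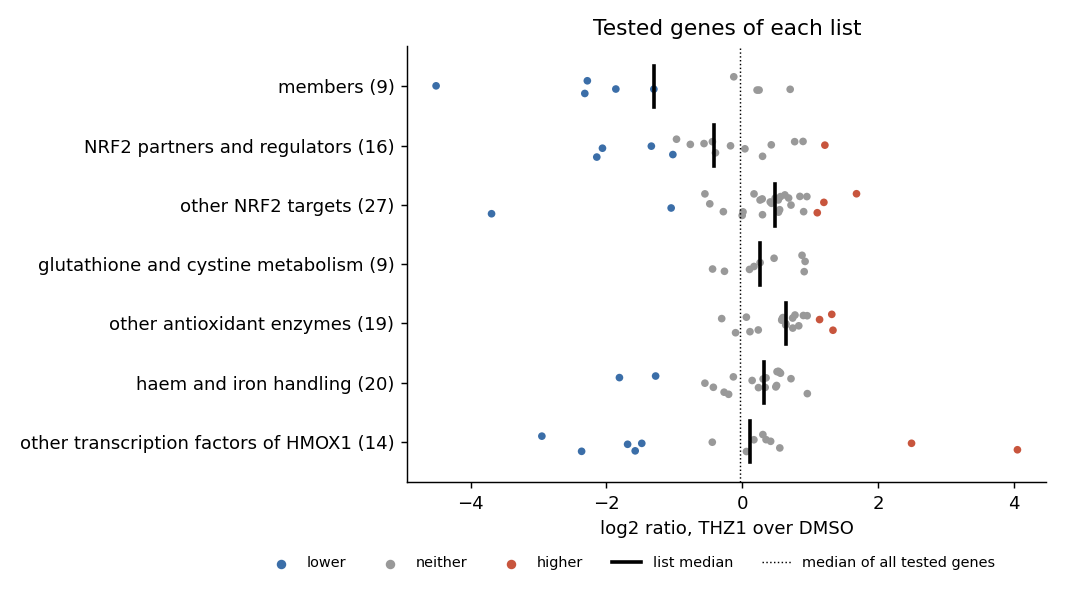
Log2 ratio of THZ1 over DMSO (x axis) of every tested gene in each list, with the number tested in brackets, blue for lower, red for higher and grey for neither; thick bars are list medians and the dotted line is the median of all tested genes. List medians run from −0.42 for partners and regulators to 0.64 for other antioxidant enzymes, and the median of the members, −1.30, reflects their choice; 5 genes of the haem list also belong to the NRF2 target list, and GSR belongs to both the NRF2 target and the glutathione list.

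Antioxidant enzymes that are not classed as NRF2 targets here had 0 lower, 3 higher (15.8%, beside 9.70% of all tested genes) and 16 neither of 19 tested, with a median of 0.64. With total counts 0 of the 19 were higher, so all 3 calls are lost on that scaling, while the mitochondrial reference left 10 lower and 0 higher. On TMM scaling the higher ones were SOD1 (1.34, 1.28 to 1.40), the cytosolic superoxide dismutase, the glutaredoxin gene GLRX (1.32, 1.12 to 1.52) and PRDX4 (1.14, 1.04 to 1.24), the peroxiredoxin of the endoplasmic reticulum. PRDX6 stood at 0.96 (0.90 to 1.01). The other 9 tested genes of glutathione and cystine metabolism were all neither, with a median of 0.26, and included the cystathionine beta-synthase gene CBS (0.88), GGCT (0.93) and the aminopeptidase gene LAP3 (0.91).

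Around HMOX1, the genes of haem and iron handling had 2 lower (10.0%, beside 21.3% of all tested genes), 0 higher and 18 neither of 20 tested, with a median of 0.32. The lower ones were IREB2 (−1.81, −1.94 to −1.68), an iron-sensing RNA-binding protein, and the folate and haem transporter gene SLC46A1 (−1.28; 57 and 16 counts). The transferrin receptor gene TFRC (0.96), the ferritin heavy chain gene FTH1 (0.72) and the biliverdin reductase gene BLVRB (0.56) were within 2-fold. FTH1 has near-identical processed copies in the genome and its counts are uncertain.

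Transcription factors other than NRF2 that are known to act on HMOX1 had 5 lower (35.7%, beside 21.3% of all tested genes), 2 higher (14.3%, beside 9.70%) and 7 neither of 14 tested, with a median of 0.12. The AP-1 subunit genes FOSL1 (−2.95, −3.06 to −2.85; 8581 and 770 counts) and JUN (−2.37, −2.59 to −2.16; 1495 and 201 counts) were lower, as were USF1 (−1.69), RELA (−1.58) and SP1 (−1.48). JUNB (2.49, 2.25 to 2.76) and FOS (4.05, 3.58 to 4.61) were higher. FOSL1 had the most counts of these AP-1 genes in both libraries, while FOS had 36 counts in DMSO and 421 in THZ1. The part of any of these factors in the level of HMOX1 was not tested.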

How the data were processed

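For each library the authors deposited whole-number counts by Ensembl gene, without normalization. Tools listed per the submitters' processing notes are featureCounts 1.6.0, HISAT2 2.1.0 and Trimmomatic 0.38, with the build GRCh38, and the kit per the labels' protocols was KAPA mRNA HyperPrep on TRIzol RNA. Not given in the sources used here were the gene annotation, whether strand was used, and how ambiguous reads were handled.

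Symbols were found for 58472 of 58884 IDs, and 58611 IDs were in GENCODE 29 (GRCh38), which gave coordinates and exons. SOD2 has 2 IDs, of which the one with more counts was used. TMM factors came from edgeR 4.0.16 (R 4.3.3) over genes with 30 or more counts in a library, giving effective sizes of 22049153 (DMSO) and 15320940 (THZ1). No fit is possible with 1 library per group. Ratios had 0.5 added to each count, intervals were exact Clopper-Pearson (ratios), conditional exact (quotients) or Poisson (levels), and calls needed 2-fold and an interval excluding 1. Intervals cover counting error only. They also treat each read as independent, although reads lacking molecular identifiers can be copies of the same molecule.

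The members and lists were chosen with earlier results of these data known. Named are the members, up to 4 genes per list furthest from 0 with 100 or more counts, the genes of each pair and the 3 genes nearest to HMOX1, except 1 gene that is not reported here. CBR3, SLC46A1, GSK3B, USF1, RELA, SP1, CUL3, SQSTM1, the small MAF genes, GSR and the epithelial markers other than KRT18 and KRT8 were named after their values were seen. There were 11 alternatives, among them DESeq2 1.42.0 size factors. Promoter windows are RefSeq's (GRCh38.p14). Tables were made with scipy 1.17.1, numpy 2.4.6 and pandas 2.3.3 under Python 3.11.15, and plots with matplotlib 3.10.9. No genome sequence was used here, so no wider upstream search was made.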

Additional observations from a re-analysis of the deposited data

How the results depend on the processing

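The 5 lower members were lower under each of the 11 alternatives, and a minimum of 1 count added SRXN1. No called member ratio changed sign. The 2 other count minimums, the 1.5-fold threshold and the stricter interval leave every ratio as it is by construction. On the mitochondrial reference 8 members were lower, and with a 1.5-fold threshold 1 member, NQO1, was higher. The mitochondrial reference gave 10000 lower and 88 higher genes of all tested, total counts 4260 and 368, and the higher genes numbered 2223 with a minimum of 1 count, 2914 at 1.5-fold and 670 when the whole interval had to lie past 2-fold. Of genes called, 31.3% were higher on TMM scaling, 7.95% with total counts, 0.872% on the mitochondrial reference, 41.0% with a minimum of 1 count and 43.4% at 1.5-fold.

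Partners and regulators had 7 lower and 0 higher with total counts, 13 and 0 on the mitochondrial reference, and 3 higher at 1.5-fold. They had 5 lower with DESeq2 size factors or upper-quartile scaling. With TMM over protein-coding genes only, or with the interval past 2-fold, 3 were lower. Other NRF2 targets had 1 higher with total counts, 20 lower and 0 higher on the mitochondrial reference, 9 higher at 1.5-fold, and 1 lower with 5 counts added, with the interval past 2-fold or after thinning to equal effective library size. Glutathione and cystine genes had 6 lower on the mitochondrial reference, 3 higher at 1.5-fold and 1 higher after thinning. Other antioxidant enzymes had 0 higher with total counts, 10 lower and 0 higher on the mitochondrial reference and 13 higher at 1.5-fold. Haem and iron genes had 18 lower on the mitochondrial reference, 1 lower with a minimum of 100 counts or the interval past 2-fold, and 2 higher at 1.5-fold. Transcription factors of HMOX1 had 12 lower and 1 higher on the mitochondrial reference. The shifts follow from the scaling, threshold or minimum itself. No paired analysis was possible because each group had 1 library. Variation between cultures is not measured, and SRXN1 is limited by 28 counts and by its overlap with another gene.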
